A study of Oryza sativa with 16 samples.

Results

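In rice seedlings, 281 genes stood at a higher level with salt than without it in both genotypes studied, wild type (WT) and h4.v KO. They were chosen by their own RNA levels. A gene was taken if its lowest value over the 4 salt-treated libraries was at least 5 FPKM and at least 2 times its highest value over the 4 libraries without salt. FPKM, a fragment count scaled by transcript length and by the size of the library, was read for each annotated gene span from the deposited loci that lie at least 50% inside it. The 281 genes are 0.944% of the 29768 annotated spans and 3.49% of the 8052 spans with at least 5 FPKM in all 4 salt libraries. Because salt against no salt chose these genes, their salt response is described here without a test. The h4.v KO to WT comparisons were not part of the choice but use the same 8 libraries, and the leaf libraries were not used for it. The rule favours genes with close replicates in the 8 seedling libraries, which can raise the share of them called between genotypes.

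Sodium chloride harms a plant first by making water harder to take up and later by the build-up of sodium ions in its tissues. Seedlings are known to answer with transcripts for compatible solutes, ion transporters, protective proteins and the synthesis of and response to abscisic acid, a stress hormone. Histone H4 is, with H2A, H2B and H3, part of the octamer around which DNA is wound in the nucleosome, and H4.V is a variant form of it in rice. The deposited identifiers come without gene names or product descriptions, so the genes are given below by identifier, position and level, and their roles were not analysed here.

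RNA was sequenced from the indica cultivar Pusa Basmati 1, with 2 libraries in each of 8 groups that the series calls biological duplicates. The seedling groups were h4.v KO with 120 mM NaCl, WT with 120 mM NaCl, h4.v KO without salt and WT without salt, with a labelled age of 20 days (the study's methods give a younger age). The h4.v KO seedlings lack a working H4.V after editing with Cas9, no longer hold the transgene and carry one of several mutation types obtained, so other changes in that line are shared by all 4 of its libraries. The leaf groups, from mature plants without salt, over-express H4.V (OE-H4.V), the standard histone H4 (OE-H4) or H4.Vs, a chimera with the N terminus of H4.V joined to the rest of H4 (OE-H4.Vs), and were set beside WT leaf. The over-expressed coding sequences were driven by the maize Ubiquitin promoter. The paper describes them as FLAG-tagged at the N terminus, in lines regenerated from calli on hygromycin. All OE lines share these traits, and their part in differences from WT leaf cannot be told apart from that of the histone.

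Depth can be compared only in relative terms because read counts were not used. It ran between 0.765 and 1.21 in seedling libraries and between 0.713 and 0.985 in leaf libraries, with WT seedling replicate 1 set to 1. The annotated span at the position of H4.V, Os05g0462900 (chromosome 5, 22743760 to 22744188), was listed at 3369 and 3162 FPKM in OE-H4.V leaves and at 0 in the other 14 libraries, so it does not check the KO label in seedlings. The files were made library by library with assembled loci, and a gene can be listed at 0 because its reads were joined to a locus that lies mostly outside it. Of the 281 genes, 41 lay under such a locus in at least 1 seedling library, 21 shared a locus with another span and 28 overlapped another span.

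The whole set moved together by construction. The median level was 25.5 and 28.2 FPKM in the h4.v KO salt libraries and 24.7 and 24.1 FPKM in the WT salt libraries. Without salt it was 4.67 and 5.04 FPKM in h4.v KO and 3.82 and 3.63 FPKM in WT. The genes took 6.48% and 6.35% of the FPKM in annotated spans in h4.v KO with salt and 5.60% and 5.68% in WT with salt. Without salt their share was 1.46% and 1.48% for the h4.v KO libraries and 1.25% and 1.34% for the WT libraries. Replicates of these genes had a median absolute difference of 0.114 between the h4.v KO salt libraries and 0.111 between the WT salt libraries on the log2(FPKM + 1) scale. Over all genes tested it was 0.149 and 0.15. A rule on the lowest and highest values favours genes with close replicates. Cufflinks' own standard deviation had a median of 5.64% of the value in the salt libraries and covers counting and assignment error only.

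**Figure D1:**
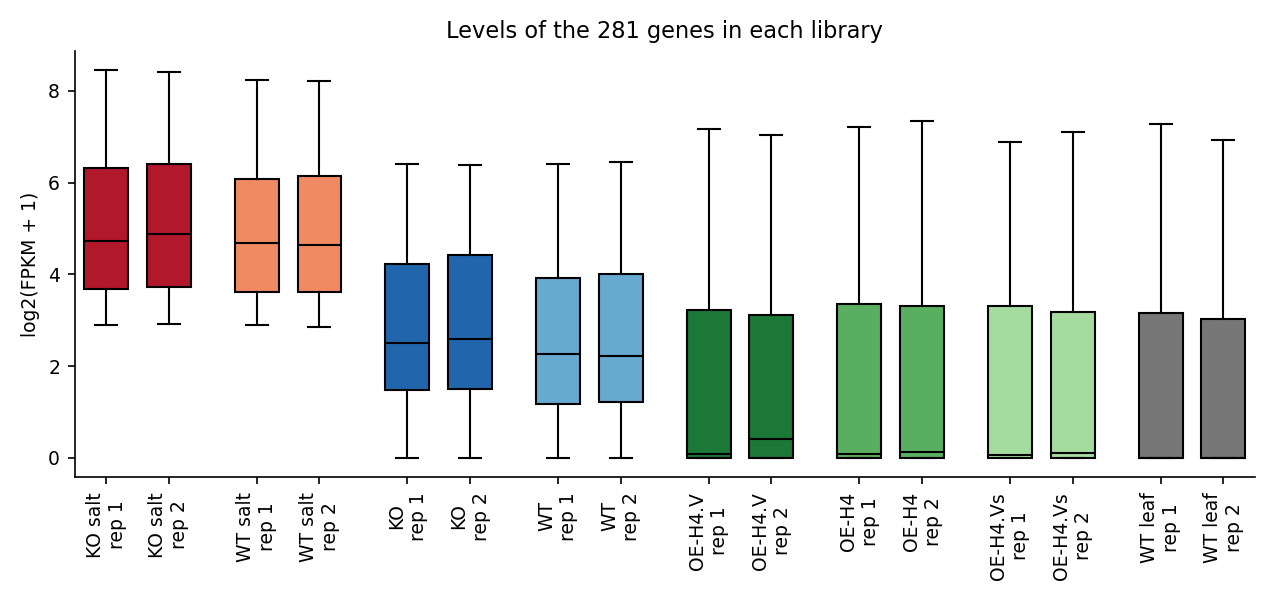
Levels of the 281 genes in each library on the log2(FPKM + 1) scale, with boxes for the quartiles, a line for the median and whiskers from the 5th to the 95th percentile. The salt libraries stand above those without salt by the way the genes were chosen, and the leaf medians are at or near 0.

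Most genes passed the ratio narrowly. The lowest salt value was 2 to 3 times the highest value without salt in 163 genes, 3 to 5 times in 50, 5 to 10 times in 20 and over 10 times in 32. The other 16 were listed at 0 in all 4 libraries without salt. The median of the 265 ratios was 2.58. In level, 71 genes had a lowest salt value of 5 to 10 FPKM, 126 of 10 to 50, 36 of 50 to 100 and 48 of at least 100. Just inside the ratio were Os01g0901300 (2.001), Os01g0971800 (2.003) and Os09g0397800 (2.003), and just outside it Os06g0726800 (2.000 after rounding), Os04g0118500 (1.998) and Os01g0649100 (1.997). Just inside the level were Os02g0771600 (5.06 FPKM), Os01g0159600 (5.08) and Os03g0159600 (5.14), and just outside it Os02g0228900 (4.91 FPKM), Os04g0523600 (4.83) and Os06g0185500 (4.81).

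The most abundant of these genes were already well above 0 without salt. Os02g0121300 (chromosome 2, 1116066 to 1116952) had 2286 and 2420 FPKM in h4.v KO and 1825 and 1723 FPKM in WT with salt, against 684 and 788 FPKM in h4.v KO and 410.5 and 548 FPKM in WT without it. Os05g0202800 (chromosome 5, 6393899 to 6396069) had 1230 and 1052 FPKM in h4.v KO and 1180 and 1271 FPKM in WT with salt, against 140.3 and 145 FPKM in h4.v KO and 132 and 119 FPKM in WT. The genotypes overlapped in that gene with salt, and its lowest salt value was 7.25 times its highest value without. Os11g0115400 had 835 and 732 FPKM in h4.v KO and 633 and 521 FPKM in WT with salt, against 257 and 242 FPKM in h4.v KO and 152 and 143 FPKM in WT, so that both h4.v KO libraries lay above both WT libraries in each condition.

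Next by level came Os11g0645400, with 593 and 575 FPKM in h4.v KO and 500 and 558 FPKM in WT with salt, against 121 and 122 FPKM in h4.v KO and 162 and 174 FPKM in WT without it. Os02g0814700 was uneven between replicates, at 569.9 and 1061 FPKM in h4.v KO and 516 and 493 FPKM in WT with salt, against 226 and 217 FPKM in h4.v KO and 186 and 191 FPKM in WT. Os02g0601300 was even, at 408 and 394 FPKM in h4.v KO and 411 and 417 FPKM in WT with salt, against 122 and 114 FPKM in h4.v KO and 105 and 103 FPKM in WT. The lowest salt values of Os05g0116100, Os11g0644650 and Os09g0541000 were 369, 373 and 345 FPKM, and the second of these shared a locus with another span. Os09g0541000 (chromosome 9, 21310132 to 21311479) had a wider ratio of 11.5, with 377 and 404 FPKM in h4.v KO and 358 and 345 FPKM in WT with salt, against 13.7 and 29.9 FPKM in h4.v KO and 27.1 and 27.6 FPKM in WT without it.

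The last of the 10 highest genes, Os07g0544800, shows what a listed 0 can hide. It had 349 and 321 FPKM in h4.v KO and 368 and 381 FPKM in WT with salt, and was listed at 0 in all 4 libraries without salt. In those libraries the span lay under longer loci of 4857 to 4909 bp, mostly outside it, at 273 and 303 FPKM in h4.v KO and 222 and 245 FPKM in WT. Its 0 therefore does not measure absence. Such a locus lay over 8 of the 16 genes listed at 0 throughout without salt, among them also Os06g0152600, Os08g0395300 and Os03g0101500, and the part of the enclosing loci in their place among the 281 was not tested gene by gene. Os06g0152600 was also uneven with salt, at 75.4 and 266 FPKM in h4.v KO and 64.5 and 341 FPKM in WT, and a longer locus over it stood at 80.3 and 87.3 FPKM in h4.v KO and 58.8 and 60.2 FPKM in WT with salt, against 54.1 and 55.1 FPKM in h4.v KO and 46.0 and 42.7 FPKM in WT without it. Of all 281 genes, 37 lay under such a locus in a library without salt.

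Os01g0644200 (chromosome 1, 25931149 to 25931730) had no such locus over it. It had 31.4 and 28.2 FPKM in h4.v KO and 28.9 and 24.8 FPKM in WT with salt and was listed at 0 in all 4 libraries without salt. It was also listed at 0 in all 8 leaf libraries. No fold is given for it, since the tables hold no counts from which a floor could be set.

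Among the genes with a value above 0 without salt, Os01g0155800 (chromosome 1, 2999576 to 3001139) combined a high level with a wide ratio of 40.4. It had 133 and 145 FPKM in h4.v KO and 109 and 107 FPKM in WT with salt, against 2.07 and 1.01 FPKM in h4.v KO and 2.32 and 2.65 FPKM in WT. Os08g0104400 had 41.0 and 60.9 FPKM in h4.v KO and 57.4 and 56.5 FPKM in WT with salt, against 0 and 1.09 FPKM in h4.v KO and 0 in both WT libraries. Os10g0542100 had 14.7 and 14.1 FPKM in h4.v KO and 11.9 and 13.8 FPKM in WT with salt, and its only value above 0 without salt was 0.103 FPKM in h4.v KO replicate 1. In Os11g0451700 that single value, 0.328 FPKM, came from WT replicate 1, against 16.3 and 22.0 FPKM in h4.v KO and 25.4 and 17.4 FPKM in WT with salt. Each of these last ratios rests on a value so low that it says little more than near absence without salt.

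Os11g0453900 was uneven in WT with salt, at 22.5 and 66.2 FPKM, beside 25.5 and 31.7 FPKM in h4.v KO, and was at 0.935 and 0.825 FPKM in h4.v KO and 0.101 and 0 FPKM in WT without salt. The 2 widest ratios of all were 330 in Os03g0766100 and 199 in Os07g0638300, and longer loci lay over both spans with and without salt. For Os03g0766100 those loci stood at 280.4 and 633 FPKM in h4.v KO and 1.05 and 0.880 FPKM in WT with salt, against up to 112 FPKM in h4.v KO and 104 FPKM in WT without it. Its span was called higher in h4.v KO under salt, at 137 and 128 FPKM in h4.v KO and 69.0 and 64.5 FPKM in WT, and the part of the enclosing loci in this ratio and this call was not tested. For Os07g0638300 they stood at 1.11 to 4.97 FPKM in the 4 salt libraries and at 2.06 to 2.42 FPKM in 3 of the 4 without salt. Os02g0626400, with a ratio of 25.2, lay under such a locus in h4.v KO replicate 2. Os02g0257200 and Os02g0257250, with ratios of 123 and 112, share 1 locus and count as 1 measurement.

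The size of the salt response is given for both genotypes as a description, since both had to pass the same bound. On the log2(FPKM + 1) scale, salt against no salt had a median of 1.83 in h4.v KO (range 0.98 to 8.39) and 1.93 in WT (range 1.01 to 8.55), beside -0.096 and 0.088 over all genes tested. With limma at an adjusted p under 0.05, 16.4% of all 15450 genes tested were higher with salt in h4.v KO and 24.2% in WT. Calls of the 281 genes are not given for this contrast, since it chose them. The response was larger in h4.v KO in 132 genes and in WT in 149, with a median difference (h4.v KO minus WT) of -0.04. It differed by over 1 in 43 genes, and was the larger one in h4.v KO in 16 of them and in WT in 27. Some of these rest on a 0 listed under a longer locus without salt. Os01g0123900 had 1.24 in h4.v KO and 5.69 in WT, with such loci in WT. Os01g0823150 had 5.83 in h4.v KO and 1.97 in WT, with such loci in h4.v KO. The difference in response was not tested, and its share over all genes was not counted. These splits, and the 16.4% and 24.2% above, are from FPKM as deposited and were not counted with median-of-ratios scaling. With that scaling the median over all genes was -0.015 in h4.v KO and -0.003 in WT, in place of -0.096 and 0.088. The splits between the genotypes can therefore depend on the scaling.

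The comparison of h4.v KO with WT under salt asks whether these genes reach another level without H4.V. Of the 281 genes, 13 were called higher (4.63%) and 2 lower (0.712%) in h4.v KO with limma at an adjusted p below 0.05 (Benjamini-Hochberg over 15450 genes). Over all genes tested the shares were 1.00% higher and 1.15% lower, and among the 8052 genes with at least 5 FPKM in all 4 salt libraries they were 0.994% and 1.17%. The median log2 fold change was 0.07 over the 281 genes and -0.05 over all genes. The choice favours genes with close replicates in these libraries, so the gap between the shares called is not a test of the set. The count rests on a pooled spread. It was 4 (all higher, 1.42%) with the replicate number as a block, beside 0.531% higher over all genes. It was 3 (all higher, 1.07%) with only the 4 salt libraries in the fit, beside 0.372%. With median-of-ratios scaling 20 were called higher and 1 lower (7.12% and 0.356%), beside 1.2% and 0.958% of all genes. The count was lower than in the full fit without any 1 of the 4 salt libraries, which leaves a group with 1 library. Without WT salt replicate 2 the share called higher was not above that over all genes.

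Os02g0775300 (chromosome 2, 32728445 to 32729346) had the largest log2 fold change under salt among the called genes. Os06g0133100, which shares a locus with its neighbour Os06g0133000, had a larger value of 2.13 ± 1.00 (SE) from 674 and 73.2 FPKM in h4.v KO and 60.03 and 41.9 FPKM in WT, and was not called (limma adjusted p = 0.37). Os02g0775300 had 34.9 and 42.0 FPKM in h4.v KO and 10.6 and 7.98 FPKM in WT, a log2 fold change of 1.95 ± 0.22 (SE, limma adjusted p = 0.018). Without salt the genotypes overlapped, at 1.27 and 1.93 FPKM in h4.v KO and 2.53 and 1.80 FPKM in WT. Os05g0214300 had 15.7 and 19.8 FPKM in h4.v KO and 7.99 and 6.95 FPKM in WT under salt, a log2 fold change of 1.14 ± 0.16 (SE, limma adjusted p = 0.037). Without salt it was at 1.89 and 1.71 FPKM in h4.v KO and 2.61 and 3.34 FPKM in WT.

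A pair of neighbouring genes on chromosome 7, Os07g0206400 (5736877 to 5737483) and Os07g0206500 (5741877 to 5742488), was higher in h4.v KO in both conditions. Under salt Os07g0206400 had 383 and 427 FPKM in h4.v KO and 151 and 153 FPKM in WT, a log2 fold change of 1.41 ± 0.08 (SE, limma adjusted p = 0.0022). Os07g0206500 had 614 and 614 FPKM in h4.v KO and 246 and 252 FPKM in WT, a log2 fold change of 1.30 ± 0.06 (SE, limma adjusted p = 0.0007). Without salt Os07g0206400 had 27.3 and 24.9 FPKM in h4.v KO and Os07g0206500 had 36.7 and 37.8 FPKM, whereas both were listed at 0 in both WT libraries. Each h4.v KO library lay above each WT library in both conditions. Whether the pair is alike in sequence, so that reads could be shared between them, was not analysed here.

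The 2 genes called lower under salt were Os06g0681200 and Os03g0102700. Os06g0681200 had 6.96 and 5.60 FPKM in h4.v KO and 17.7 and 14.5 FPKM in WT, a log2 fold change of -1.23 ± 0.16 (SE, limma adjusted p = 0.028). Os03g0102700 had 18.8 and 18.2 FPKM in h4.v KO and 32.5 and 32.5 FPKM in WT, a log2 fold change of -0.78 ± 0.12 (SE, limma adjusted p = 0.044), and was the other way round without salt. Of the 15 genes called under salt, 4 were called in the same direction without salt, 4 in the opposite direction and 7 under salt alone. The like split over all genes called under salt was not counted. Without salt, 16.8% of all genes tested were called higher and 12.6% lower in h4.v KO.

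**Figure D2:**
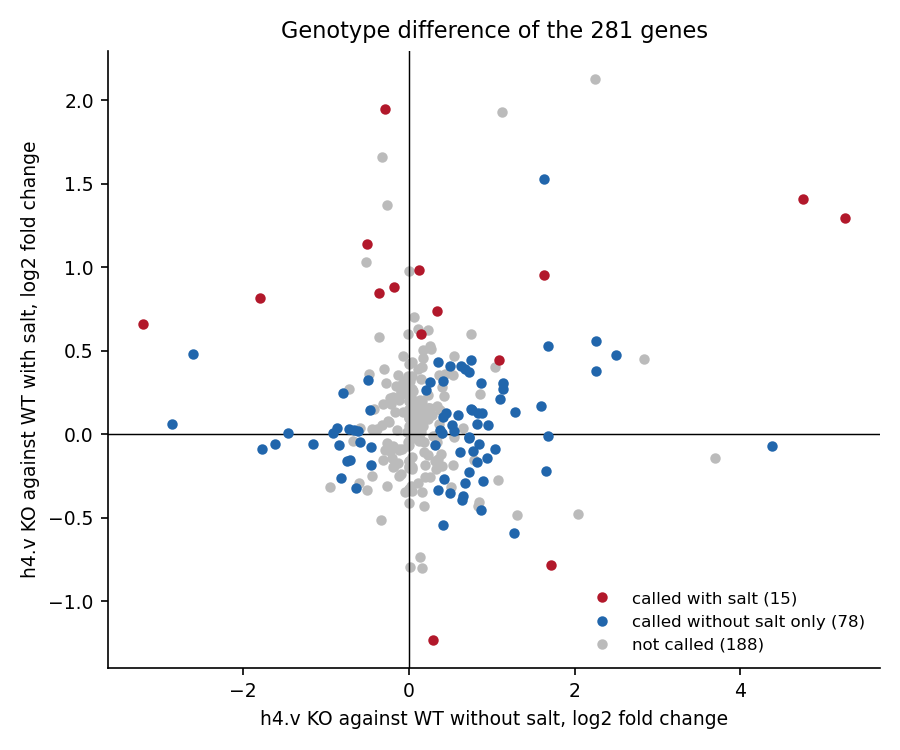
Log2 fold change of h4.v KO against WT without salt (x axis) and with salt (y axis) for the 281 genes, from limma on log2(FPKM + 1). The 15 genes called with salt are in red, with 13 of them above 0 on the y axis, and both axes come from separate pairs of groups.

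Without salt, 61 of the 281 genes were called higher (21.7%) and 25 lower (8.9%) in h4.v KO. Over all genes tested the shares were 16.8% higher and 12.6% lower, and among the 7771 other genes with at least 5 FPKM in all 4 salt libraries they were 20.6% and 12.2%. The choice of genes caps both genotypes by the same bound in this condition. It also favours close replicates, so the gap between these shares is not a test of the set either. With median-of-ratios scaling 45 of the 281 genes were called higher (16.0%) and 39 lower (13.9%), beside 11.3% and 15.2% of all genes, and the median of all genes then moved by more than 0.1, to 0.015 on the log2 scale from 0.139 with FPKM as deposited. The split between higher and lower calls thus depended on the scaling. With only the 4 libraries without salt in the fit, 239 of the genes were tested, and 41 were called higher and 14 lower (17.2% and 5.86%), beside 14.6% and 11.8% of all.

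**Figure D3:**
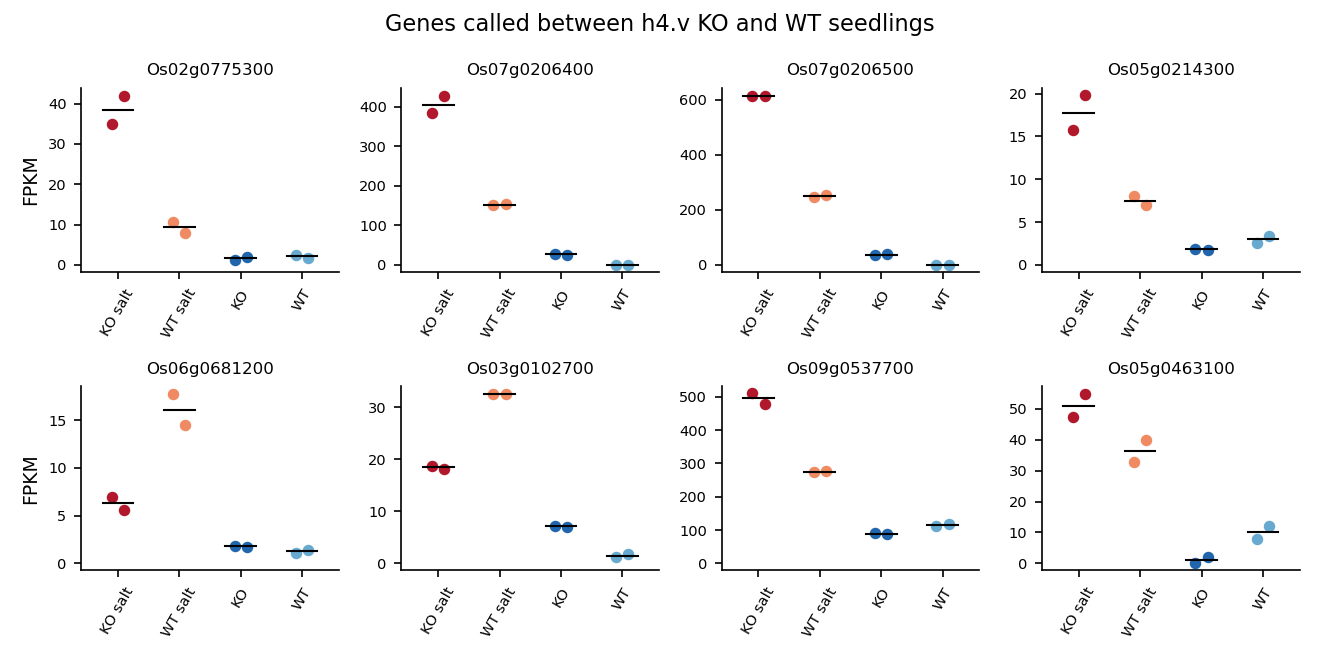
FPKM in each seedling library of 8 genes called between h4.v KO and WT, with dots for libraries and a line for the mean of the 2 replicates. The pair Os07g0206400 and Os07g0206500 is higher in h4.v KO with and without salt, and Os03g0102700 and Os09g0537700 change their order between the conditions.

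The widest differences without salt were between genes listed at 0 in one genotype. In 11 of the 281 genes (3.91%) both h4.v KO libraries were above 0 and both WT libraries at 0, beside 0.880% of all genes tested, and in 7 (2.49%) it was the reverse, beside 0.608%. The rule favours low values without salt, and 60 of the 281 genes had a 0 in at least 1 such library. Nothing is therefore read from the gap between these shares. Of the 11, 6 lay in a single stretch of chromosome 7 from 5736877 to 6433104, a region picked after its values were seen. They were the pair above, Os07g0213600, Os07g0214600, Os07g0216600 and Os07g0216700. Os07g0214600 had 3.88 and 5.51 FPKM in h4.v KO without salt, and 80.6 and 82.2 FPKM in h4.v KO and 60.4 and 56.5 FPKM in WT with it. Os07g0216700 had 1.69 and 2.57 FPKM in h4.v KO without salt, and 67.1 and 104 FPKM in h4.v KO and 23.4 and 34.1 FPKM in WT with it. Of the 44 annotated spans in the stretch 25 were tested, and limma called 11 of these higher in h4.v KO and 0 lower without salt (0 lower also at an unadjusted p under 0.05). With salt it called 2 higher and 0 lower (5 and 2 at an unadjusted p under 0.05). The 6 genes set the bounds of the stretch and are among the 25, so the higher count without salt was partly fixed by the choice. A count without them was not made. Over all genes tested, 16.8% were called higher and 12.6% lower without salt, and 1.00% and 1.15% with it. The counts in the stretch stand beside the tests of the same fit and carry no test of their own.

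In the lower direction without salt, Os05g0463100 (chromosome 5, 22750564 to 22751140), which lies near the H4.V position, had 0 and 2.15 FPKM in h4.v KO and 7.93 and 12.04 FPKM in WT (limma adjusted p = 0.020). With salt it had 47.4 and 54.7 FPKM in h4.v KO and 32.6 and 40.0 FPKM in WT, which did not pass the test (limma adjusted p = 0.70). Os08g0189100 was listed at 0 in h4.v KO and at 2.59 and 2.37 FPKM in WT. For Os01g0823150 and Os03g0794200, also listed at 0 in h4.v KO and at 7.73 and 8.66 FPKM and 6.27 and 6.13 FPKM in WT, both h4.v KO libraries held a longer locus over the span. The same was the case for Os01g0123900 in the other direction, at 18.9 and 20.7 FPKM in h4.v KO and 0 in WT, where both WT libraries held such a locus at 18.7 and 11.6 FPKM.

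In leaves many of the 281 genes were scarcely detected. Both WT leaf values were under 1 FPKM in 160 genes (56.9%), beside 893 (11.5%) of the 7771 other genes with at least 5 FPKM in all 4 salt libraries. All 8 leaf libraries listed 0 for 95 of them (33.8%), beside 324 (4.17%) of the other genes. Their median was 0 in both WT leaf libraries and 0.048 to 0.320 FPKM in the OE libraries. These shares compare genes that were chosen for low values without salt with genes that were not, and age, organ and growth differ between leaf and seedling, so the origin of the gap cannot be told apart here. In 22 of the 281 genes both WT leaf values reached the lowest salt value of seedlings, and the like share of the other genes was not counted. In 17 (6.05%) both exceeded every seedling value, a smaller share than the 11.6% of the other genes.

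Os11g0645400, among the 10 highest genes in salt-treated seedlings, was listed at 0 in all 8 leaf libraries. Os02g0601300 stood at 8.41 and 11.1 FPKM in WT leaf, below each of its seedling values. Os09g0541000 stood at 874 and 826 FPKM in WT leaf, above each of its seedling values with salt. Os02g0121300, at 605 and 592 FPKM in WT leaf, lay within the range of seedlings without salt. Os07g0544800 had 1084 and 0 FPKM in the 2 WT leaf libraries, and the second of them held a longer locus over the span. In 6 of the 281 genes a 0 stood beside a value of at least 50 FPKM among the leaf libraries.

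**Figure D4:**
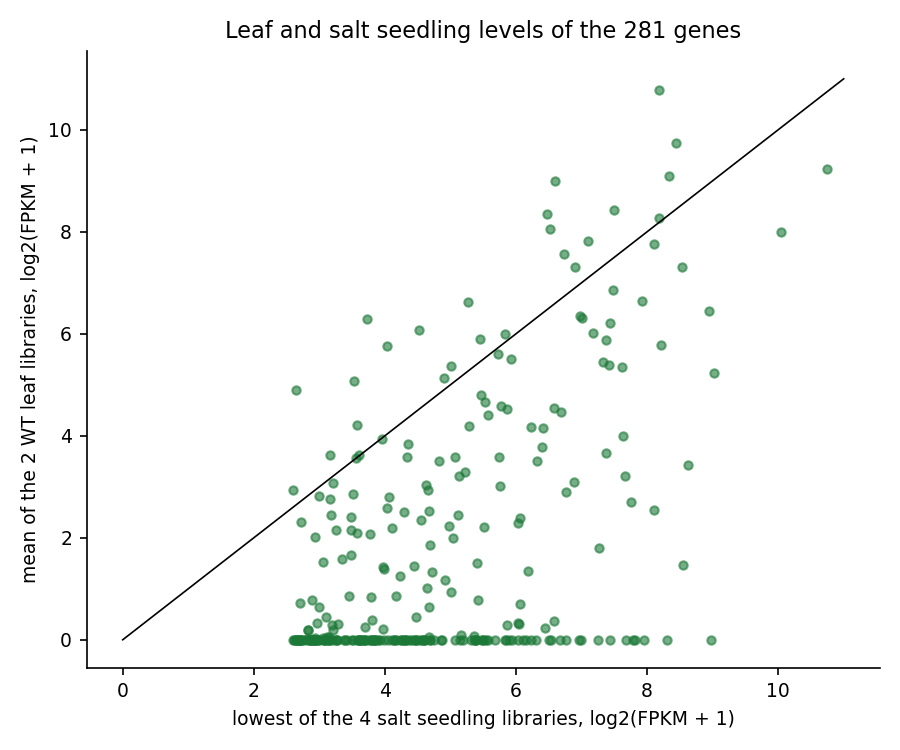
Mean of the 2 WT leaf libraries (y axis) against the lowest of the 4 salt seedling libraries (x axis), both as log2(FPKM + 1), with a point for each of the 281 genes and a line for equal values. Most points lie below the line, and 160 genes had both WT leaf values under 1 FPKM.

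The OE lines were compared with WT leaf in 130 of the 281 genes, those averaging 1 FPKM or more in leaf. The 3 comparisons share the 2 WT leaf libraries. In OE-H4.V, 4 genes were called higher and 2 lower, beside 3.06% and 2.08% of the 12159 genes tested. In OE-H4.Vs, 3 were called higher and 4 lower, beside 3.63% and 1.98% of all. In OE-H4, 20 were called higher (15.4%) and 11 lower (8.46%), beside 10.8% and 6.15% of all. With median-of-ratios scaling OE-H4 had 18 higher and 18 lower (13.8% each), beside 7.37% and 8.76% of all, and the median of all genes moved from 0.166 to -0.004. The OE-H4 total of 31 was lower in each fit without 1 OE-H4 or WT leaf library, which leaves a group with 1 library. The shares over all genes were also lower in those fits.

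OE-H4 leaves held the highest values of several of these genes. Os05g0202800, among the highest in seedlings too, had 5981 and 3695 FPKM in OE-H4, 986 and 730.3 FPKM in OE-H4.V leaves and then 1575 and 376 FPKM in OE-H4.Vs leaves, against 154 and 356 FPKM in WT leaf. The log2 fold change of OE-H4 against WT was 4.32 ± 0.75 (SE, limma adjusted p = 0.019), and both OE-H4 values exceeded every seedling value. Os04g0650700 had 504 and 310.2 FPKM in OE-H4, 93.1 and 64.7 FPKM in OE-H4.V leaves and 93.0 and 158 FPKM in OE-H4.Vs leaves, against 30.7 and 15.2 FPKM in WT leaf. It was called higher in OE-H4 (log2 fold change 4.13 ± 0.45 SE, limma adjusted p = 0.0045) and in OE-H4.Vs (2.43 ± 0.45 SE, limma adjusted p = 0.041). The same gene was also called higher in h4.v KO under salt, at 108 and 106 FPKM in h4.v KO and 53.9 and 61.0 FPKM in WT.

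Os05g0214300, described above for its higher level in h4.v KO under salt, had 31.2 and 13.5 FPKM in OE-H4, against 0 and 1.11 FPKM in WT leaf (limma adjusted p = 0.0082). Os01g0511100 had 9.81 and 5.38 FPKM in OE-H4, against 1.16 and 0.0838 FPKM in WT leaf (limma adjusted p = 0.016). Among the lower calls, Os05g0548900 had 5.50 and 7.74 FPKM in OE-H4, against 32.2 and 35.7 FPKM in WT leaf, a log2 fold change of -2.21 ± 0.24 (SE, limma adjusted p = 0.0044). Its values in OE-H4.V (20.4 and 30.5 FPKM) and OE-H4.Vs (29.9 and 35.2 FPKM) were nearer to WT leaf and were not called. Os09g0397800, also called lower in OE-H4, shared a locus with another span and lay under a longer one in all 8 leaf libraries.

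A few genes were called in several lines. Os06g0715100 was at 4.28 and 4.42 FPKM in OE-H4.V, 3.49 and 2.48 FPKM in OE-H4 and 5.97 and 5.47 FPKM in OE-H4.Vs, against 0 and 0.0686 FPKM in WT leaf, and was called higher in all 3 lines. The OE-H4 leaves had 1.63 and 1.71 FPKM of Os02g0191300, the OE-H4.Vs leaves 1.77 and 2.67 FPKM, against 5.39 and 7.41 FPKM in WT leaf, and the gene was called lower in both lines. Os03g0101500 was called lower in all 3, at 0 in the 6 OE libraries against 4.36 and 4.59 FPKM in WT leaf, but each OE library held a longer locus over its span, at 10.8 to 16.9 FPKM.

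In OE-H4.V, Os04g0493400 stood at 17.0 and 15.8 FPKM, against 0 in both WT leaf libraries (limma adjusted p = 0.0068). OE-H4 was also at 0, while OE-H4.Vs had a mean of 4.12 FPKM (SD 3.39) and was not called. Os11g0115400, also high in seedlings, had 104 and 87.9 FPKM in OE-H4.V, against 36.6 and 36.8 FPKM in WT leaf, a log2 fold change of 1.36 ± 0.26 (SE, limma adjusted p = 0.047). Os06g0726200 had 2.88 and 2.25 FPKM in OE-H4.V, against 0.337 and 0 FPKM in WT leaf (limma adjusted p = 0.021), and was also called higher in h4.v KO under salt. Os09g0424300 had 1.33 and 1.53 FPKM in OE-H4.V, against 4.41 and 4.47 FPKM in WT leaf (limma adjusted p = 0.023). In OE-H4.Vs, Os02g0166501 was called higher at 15.9 and 10.5 FPKM, against 3.38 and 2.72 FPKM in WT leaf. Os06g0591400 and Os07g0142900 were called lower in OE-H4.Vs, at 0 in both libraries against 1.22 and 1.30 FPKM and at 41.2 and 40.3 FPKM against 62.4 and 69.6 FPKM.

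**Figure D5:**
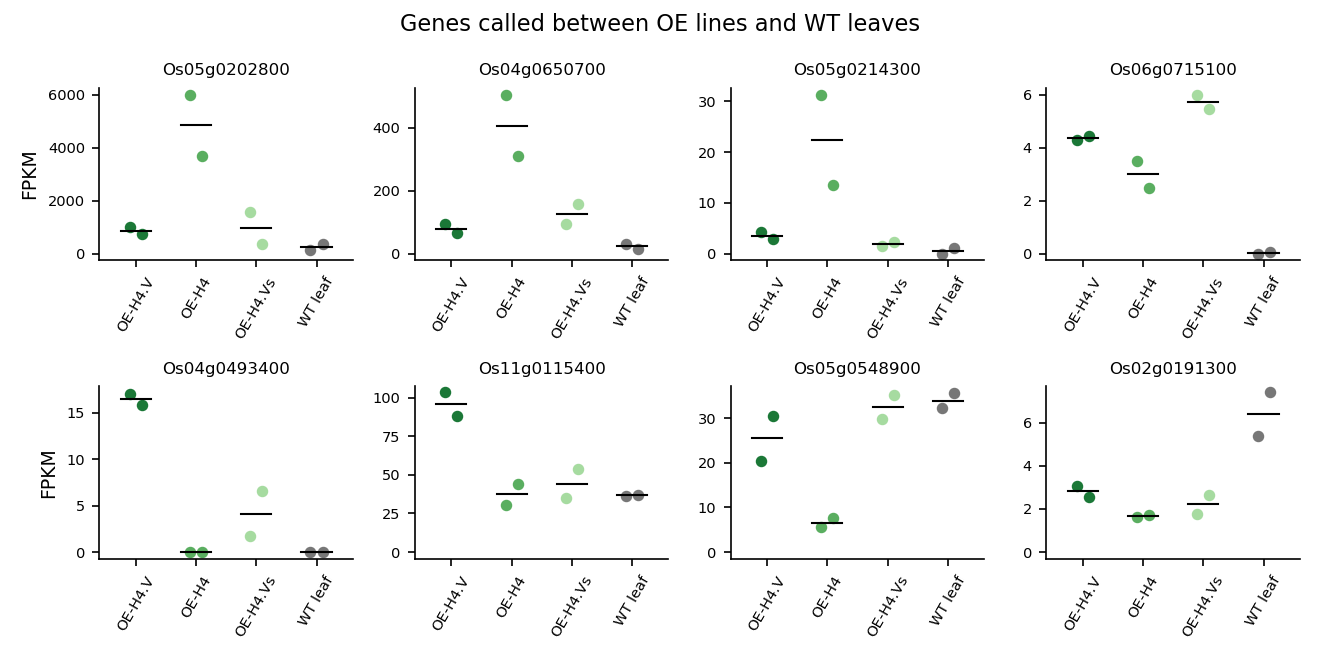
FPKM in each leaf library of 8 genes called between an OE line and WT leaf, with dots for libraries and a line for the mean of the 2 replicates. Os05g0202800 reaches 5981 and 3695 FPKM in OE-H4, and Os06g0715100 is above WT leaf in all 3 lines.

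The 281 genes lay on all 12 chromosomes, from 0.463% of the annotated spans of chromosome 12 to 1.19% of those of chromosome 10. Their spans were shorter, with a median of 1564 bp beside 3403 bp for the 7771 other genes. In the order of the annotation 15 pairs of neighbours were both among the 281, and no run was longer than 2. In 7 of the pairs 1 locus was assigned to both members in at least some libraries, so their values are not separate measurements. The other 8 pairs were measured from separate loci.

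Among these, Os05g0116000 and Os05g0116100 (chromosome 5, from 873167 to 880445) differed widely in level and had like ratios of 2.61 and 2.58. Os05g0116100 had 400 and 588 FPKM in h4.v KO and 446 and 369 FPKM in WT with salt, against 132 and 124 FPKM in h4.v KO and 130.2 and 143 FPKM in WT. Os05g0116000 had 39.1 and 41.6 FPKM in h4.v KO and 32.7 and 34.9 FPKM in WT with salt, against 12.3 and 12.6 FPKM in h4.v KO and 12.3 and 12.3 FPKM in WT. Os09g0537700 was called higher in h4.v KO under salt. Its neighbour Os09g0538000 had 66.3 and 68.0 FPKM in h4.v KO and 55.9 and 56.5 FPKM in WT, without overlap, and did not pass the test (limma adjusted p = 0.15). The difference between the pair was not tested. Os07g0638400, next to Os07g0638300, had 93.4 and 91.5 FPKM in h4.v KO and 107 and 108 FPKM in WT with salt, against 45.5 and 44.2 FPKM in h4.v KO and 13.0 and 13.96 FPKM in WT, and was listed at 0 in all 8 leaf libraries.

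In the neighbours Os01g0914100 and Os01g0914200 the values with salt lay at 35.4 and 40.4 FPKM in h4.v KO and 47.4 and 43.6 FPKM in WT for Os01g0914100 and at 41.1 and 39.9 FPKM in h4.v KO and 43.4 and 43.1 FPKM in WT for Os01g0914200, which shares a locus with a span other than its neighbour. Without salt Os01g0914100 had 3.50 and 4.99 FPKM in h4.v KO and 7.72 and 8.58 FPKM in WT, and Os01g0914200 had 15.4 and 14.8 FPKM in h4.v KO and 19.9 and 17.5 FPKM in WT. Os02g0503900 had 10.2 and 9.44 FPKM in h4.v KO and 11.5 and 11.3 FPKM in WT with salt, against 3.08 and 3.59 FPKM in h4.v KO and 3.78 and 4.07 FPKM in WT. Its neighbour Os02g0504000 had 14.5 and 15.9 FPKM in h4.v KO and 14.6 and 14.1 FPKM in WT with salt, against 2.85 and 3.02 FPKM in h4.v KO and 3.53 and 3.74 FPKM in WT. Neither gene was called between the genotypes in either condition. Os07g0480800 had 7.90 and 8.26 FPKM in h4.v KO and 8.58 and 7.86 FPKM in WT with salt, against 2.95 and 2.69 FPKM in h4.v KO and 1.32 and 1.27 FPKM in WT. Os07g0480900 beside it had 6.20 and 5.91 FPKM in h4.v KO and 7.20 and 6.90 FPKM in WT with salt and was listed at 0 in all 4 libraries without salt, with no longer locus over it. The last pairs, Os07g0206400 with Os07g0206500 and Os07g0216600 with Os07g0216700, lie in the stretch of chromosome 7 described above.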

How the data were processed

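Per the study's methods, poly(A)+ paired-end reads were trimmed (Trimmomatic) and aligned to IRGSP1.0 (HISAT2) by the authors, and each library was passed to Cufflinks, whose version is 2.2.1 in the submitters' processing notes. The 16 deposited tables give FPKM with confidence bounds per annotated gene and per assembled locus, and coordinates are those of the tables. Here a span with an identifier in any library counted as a gene (3 identifiers with 2 spans were left out), and its FPKM is the sum, over loci lying at least 50% inside it, of FPKM times the share of the span overlapped (BEDTools 2.31.1). No read counts were used, so count models were not run. Relative depth came from the confidence bounds of loci with the same bounds in a library and in WT seedling replicate 1.

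In each tissue, genes averaging 1 FPKM or more over its 8 libraries entered a linear model of log2(FPKM + 1) in limma (version 3.58.1, R version 4.3.3) with all groups of the tissue, 1 mean per group and eBayes with a trend, so fold changes are on that scale and understate those of low genes. Calls have a Benjamini-Hochberg adjusted p under 0.05 over all genes tested. P-values measure the spread between 2 libraries per group pooled over groups. Fit and matching were tested on simulated data. The 281 genes and all lists were chosen with earlier results of these data known. Named are the 10 highest genes, the 10 widest ratios, up to 5 genes listed at 0 without salt, 3 on each side of each threshold, up to 4 called genes per comparison and direction with the largest fold change, and neighbours; others named were chosen after their values were seen. Gene names, product lists, tissue markers and promoter motifs of the plan were not analysed here. The settings without genes under an enclosing locus, the background among genes with at least 5 FPKM with salt, and the counts on chromosome 7 were added after seeing the data.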

Additional observations from a re-analysis of the deposited data

Results flagged for a closer look

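In 4 of the 281 genes a genotype difference (h4.v KO against WT) was called in both conditions with opposite signs, and every h4.v KO library lay on one side of every WT library with salt and on the other side without it. The difference between the conditions itself was not tested, and the share of all genes with such a reversal was not counted. Os09g0537700 (chromosome 9, 21155963 to 21157945) had a log2 fold change of 0.84 with salt (511 and 478 FPKM in h4.v KO, 273 and 276 FPKM in WT) and -0.36 without it (90.0 and 88.2 FPKM in h4.v KO, 111 and 118 FPKM in WT). Os03g0102700 had -0.78 with salt and 1.71 without it (7.15 and 7.04 FPKM in h4.v KO, 1.22 and 1.75 FPKM in WT). Os08g0189100 had 0.82 with salt (32.6 and 29.7 FPKM in h4.v KO, 17.8 and 16.7 FPKM in WT), with h4.v KO listed at 0 without salt, and lay under a longer locus in h4.v KO salt replicate 1. Os01g0823150 had 0.66 with salt (52.7 and 59.3 FPKM in h4.v KO, 35.5 and 34.6 FPKM in WT), and a longer locus lay over it in both h4.v KO libraries without salt, at 24.8 and 25.4 FPKM.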

How the results depend on the processing

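The number of genes was 650 at a ratio of 1.5, 118 at a ratio of 3 and 481 at a lowest salt value of 1 FPKM, in place of 281. It was 255 with loci at least 80% in the span (238 shared), 284 with a plain sum (270 shared), 277 with median-of-ratios scaling (259 shared), 210 at 10 FPKM, 260 without shared loci, 240 without genes under an enclosing locus, and 291 to 335 when leaving out each library. At the paper's cut-offs (unadjusted p under 0.05, absolute log2 fold change over 1.5) h4.v KO against WT gave 3 calls with salt and 20 without, and OE-H4 14. The 3 were all higher (1.07%), beside 0.641% higher and 0.57% lower of all genes. The 20 were 14 higher and 6 lower (4.98% and 2.14%), beside 2.23% and 4.61%. The 14 in OE-H4 were 9 higher and 5 lower (6.92% and 3.85%), beside 4.79% and 3.75%. With a mean of at least 5 FPKM, OE-H4 had 20, OE-H4.V 1 and OE-H4.Vs 2. Shares higher and lower were 15.1% and 8.14% in OE-H4, beside 12.2% and 6.52% of all genes. They were 1.16% and 0% in OE-H4.V, beside 2.43% and 1.19%, and 1.16% each in OE-H4.Vs, beside 2.96% and 1.19%. The replicate numbers did not pair the samples (correlations of deviations -0.027 to 0.089, from only 2 numbers), and with the replicate block the calls were 4 with salt, 76 without, 3 in OE-H4.V, 27 in OE-H4 and 3 in OE-H4.Vs. With that block, shares higher and lower without salt were 18.9% and 8.19%, beside 13.6% and 11% of all genes. In OE-H4 they were 15.4% and 5.38%, beside 8.62% and 4.95%. In OE-H4.V and OE-H4.Vs they were 1.54% and 0.769%, beside 2.08% and 1.48% and beside 2.25% and 1.37%. With only the 4 libraries compared the calls were 3 with salt, 55 without and 2 in OE-H4.Vs (0.82% each way, beside 1.66% and 1.35%). Leaving out each library gave 3 to 7 calls with salt, 61 to 66 without, 1 to 6 in OE-H4.V, 9 to 17 in OE-H4 and 1 to 8 in OE-H4.Vs, with fewer samples in each fit. These counts stand without shares of all genes, because each such fit leaves a group with 1 library. No gap between the 281 genes and all genes is read from them. The other settings stayed within 1.5 times the counts reported, and the cause of the shifts was not tested. Depth limits what can be said of genes listed at 0, whose loci may not have been assembled.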
